A study of Homo sapiens with 38 samples.

Results

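The MYC, MAX and MXD network was described through 10 genes chosen by symbol, out of 24463 genes listed in at least 1 table of the series: MYC, MYCN, MYCL, MAX, MNT, MXD1, MXD3, MXD4, MXI1 and MLX. Of these, 9 were listed in all 15 tables, and MYCN was listed only in the table of C24 in T47D. MYC, MYCN and MYCL are transcription factors that bind DNA as partners of MAX and activate genes of growth, nucleotide and ribosome synthesis. MXD1, MXD3, MXD4, MXI1 and MNT compete for the same partner MAX and repress transcription through the SIN3 and histone deacetylase complex. MLX, a relative of MAX, pairs with the glucose-sensing factors MondoA (gene MLXIP) and ChREBP (gene MLXIPL), and also with MNT and some MXD proteins. All of these pairs recognise the E-box, a short palindromic DNA element, and MYC is a short-lived protein that is amplified or overexpressed in many breast cancers.

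The samples were 38 RNA preparations, 2 per group, from BT-549, T47D and T47D-TR, established human lines of breast cancer. Each line was kept for 48 h with 2.5 uM of 1 of 4 compounds or with 0.125% DMSO, the vehicle. The compounds were MS177, a molecule made to degrade EZH2 (a histone methyltransferase) that is reported to act on MYC protein as well, MS177-N1 and MS177-N2, described as negative controls for it, and C24, which inhibits EZH2. T47D-TR was also kept for 30 h with 2.5 uM MS8815 (a second degrader of EZH2), MS8815-N (its negative control) or EPZ-6438 (an inhibitor of EZH2), or with 0.05% DMSO. All cells were grown with insulin and fetal bovine serum, and the labels do not say what distinguishes T47D-TR from T47D or whether replicates were separate cultures, so p-values measure only the spread between these samples. Transcripts were measured and protein was not, so a change of MYC protein cannot be read from these values.

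The genes lie on 8 chromosomes of hg38, with positions here from GENCODE v29. MYC spans 127735434 to 127741434 on chromosome 8, MYCL 39895426 to 39902256 on chromosome 1, MAX 65006174 to 65102695 on chromosome 14 and MXI1 110207605 to 110287365 on chromosome 10. MXD1 spans 69897688 to 69942945 on chromosome 2, MXD3 177301461 to 177312757 on chromosome 5 and MXD4 2247432 to 2262294 on chromosome 4. MNT (2384060 to 2401118) and MLX (42567068 to 42573239) are both on chromosome 17, and MYCN (15940564 to 15947007) is on chromosome 2. Of the 5154 exonic bases of MXD3, 2084 are also exons of RAB24 on its own strand or of PRELID1 on the other, so reads there may be split or shared and MXD3 values are uncertain to that extent. Exons of PSMC3IP overlap 770 bases of MLX, and an antisense transcript, AC006435.1, overlaps 1065 bases of MNT. The sources used here do not state whether counting used strand.

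The listed genes took 32.1 to 49.9 M reads per library in BT-549 and T47D, while for T47D-TR the depth is unknown. Summed expression of 10 luminal markers (ESR1, GATA3, KRT8 and others) was 17715 to 20682 CPM (normalized counts scaled to the library's total) in T47D-TR at 48 h, 11994 to 20434 CPM in T47D and 690.1 to 799 CPM in BT-549 over MS177 and DMSO libraries. The sum of 8 mesenchymal and basal markers (VIM, FN1 and others) was 2819 and 2473 CPM with MS177 and 3364 and 3448.5 CPM with DMSO in BT-549, 11.2 to 23.6 in T47D-TR at 48 h and 9.49 to 33.2 in T47D. The 5 immune and endothelial markers summed to 6.01 and 3.59 CPM with MS177 and to 0.11 and 0.212 with DMSO in T47D-TR, and to 9.77 and 8.04 with MS177 and 4.38 and 4.59 with DMSO in BT-549, and their part in any result was not tested. Some libraries stood apart from their group. The table of MS177-N1 in T47D held 1 library of that compound, because its other treated column had the values of MS177-N2 replicate 2 at 17657 of 17657 genes (within 0.001 log2 of 1 constant ratio). MS8815-N replicate 2 listed 44.3% of genes at 0, among them MYC, MXD1 and MXI1. The MS177 libraries of T47D correlated at r = 0.936 across genes, against 0.995 for the DMSO libraries of their table, those of MS8815 at 0.925 against 0.992, and those of EPZ-6438 at 0.942 against 0.991.

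Values below are normalized counts, that is, deposited values returned from the authors' log2 scale to counts, and a fold is a ratio of group means. In BT-549 and T47D these are counts scaled for library size. In T47D-TR the values of the same DMSO libraries shifted between tables by a factor that varied between genes (SD 0.101 to 0.208 log2). MXD3 averaged 367 with DMSO in the table of MS177 and 264 in that of MS177-N1. T47D-TR levels, CPM included, thus hold a factor per gene and table of unknown source. Log2 differences with their standard errors (SE) are on the deposited log2 scale for comparisons with DMSO. That scale compresses the differences of low genes by an amount that depends on the table, so these log2 differences are smaller than the folds and are not set against each other across tables. A gene passed when its limma p-value, adjusted by the Benjamini-Hochberg method over all genes tested in the comparison, was under 0.05. The tables of a line share their DMSO libraries, so comparisons within a line are not independent. Where groups are said not to overlap, the share of all genes without overlap was not computed. With 2 libraries per group such statements are descriptions of the values and not results about the members.

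The stretches before the transcription starts of MXD4, MNT and MLX are shown because these members carry the E-box letters CACGTG that the network's own proteins bind, and those of MXD1 and MXD3 because these genes moved in opposite directions with MS177. Promoter windows of RefSeq (GRCh38.p14) were read for 9 of the 10 members, in 12 windows, and the sequence of MYC was not analysed here. The 250 bases before each start were searched on both strands for CACGTG. It was found in 3 of the 12 windows, those of MXD4, MNT and MLX, and in 6.34% of 35116 windows of the same length over all genes. Only the part of each window outside GENCODE exons is printed, 5′ to 3′ on the strand of the gene, with CACGTG in capitals. MXD4 is on the minus strand at chr4:2262295-2262359 with the E-box starting at position -238 from the start, MNT on the minus strand at chr17:2401119-2401310 with it at -193, and MLX on the plus strand at chr17:42566850-42567067 with it at -50. MXD1 is on the plus strand at chr2:69914859-69915040 and MXD3 on the minus strand at chr5:177312758-177313002, and their windows hold no match of these letters.
MXD4: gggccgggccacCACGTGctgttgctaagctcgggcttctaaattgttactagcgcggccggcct
MNT: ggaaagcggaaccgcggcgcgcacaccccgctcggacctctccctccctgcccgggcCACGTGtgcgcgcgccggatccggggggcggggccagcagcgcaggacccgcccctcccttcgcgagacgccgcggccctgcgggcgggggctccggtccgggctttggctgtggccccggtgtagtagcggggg
MLX: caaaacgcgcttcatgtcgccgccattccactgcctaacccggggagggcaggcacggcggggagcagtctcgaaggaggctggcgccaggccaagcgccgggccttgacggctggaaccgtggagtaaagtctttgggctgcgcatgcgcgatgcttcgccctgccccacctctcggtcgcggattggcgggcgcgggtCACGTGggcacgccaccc
MXD1: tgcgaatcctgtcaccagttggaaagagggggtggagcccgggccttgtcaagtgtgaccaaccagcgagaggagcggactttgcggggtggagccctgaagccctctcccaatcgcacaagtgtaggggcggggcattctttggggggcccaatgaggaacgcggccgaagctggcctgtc
MXD3: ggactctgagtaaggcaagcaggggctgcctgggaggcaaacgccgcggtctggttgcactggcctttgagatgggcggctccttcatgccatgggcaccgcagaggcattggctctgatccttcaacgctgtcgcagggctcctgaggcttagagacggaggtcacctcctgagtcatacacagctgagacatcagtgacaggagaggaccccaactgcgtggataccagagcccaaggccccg
The same windows were searched for the E2F letters TTTCCCGC and TTTGGCGC (found in 1.93% of all windows) and for the cyclic AMP response element TGACGTCA (1.65% of all windows). One member window, that of MYCN, held an E2F match and none held TGACGTCA. These matches are letters in a window and do not show that a factor binds there.

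In DMSO libraries MYC was the most abundant member per length in T47D-TR and in BT-549. The T47D-TR levels hold the unknown factor per gene and table described above. In CPM per kilobase of exon, MYC stood at 29.9 and 31.2 in T47D-TR at 48 h, 31.8 and 35.2 in BT-549, and 19.8 and 20.5 in T47D. MLX was higher than MYC in T47D, with 24.1 and 24.8, against 15.3 and 17.2 in T47D-TR and 11.7 and 10.8 in BT-549. MXD3 was the most abundant of the repressors in BT-549, where it stood at 24.4 and 20.1, against 5.35 and 5.58 in T47D-TR and 7.47 and 7.97 in T47D. MAX, the shared partner, had 9.94 to 12.9 in these 6 libraries, and MXD4 had 8.62 to 10.6. MXI1, MNT, MYCL and MXD1 were lower in all 3 lines. MXD1 and MYCL were the lowest in BT-549, with 0.345 and 0.379 for MXD1 and 0.38 and 0.51 for MYCL, so their order there does not hold beyond the spread between libraries. MYCN had 15.6 and 11.7 normalized counts with C24 and 7.46 and 6.81 with DMSO in T47D, too few to enter the test.

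With MS177, MYC, MYCL, MAX and MXD1 rose and MXD3 and MXD4 fell in BT-549 and T47D-TR. In BT-549 MXI1 rose as well, and 7 of the 9 members tested passed, 5 higher and 2 lower. Over all 14474 genes tested in BT-549, 12.9% were higher and 14.4% lower. In T47D-TR 6 of 9 members passed, 4 higher and 2 lower, where 31.1% of 10425 genes were higher and 31.4% lower, so the share of members that passed there was near that of all genes. In T47D none of the 9 members passed in limma, where 0.0% of 18146 genes did. There 3 members had an unadjusted limma p under 0.05, as did 3247 of 18146 genes. Limma voom on the recovered whole reads also passed none of the members. In bulk samples such as these, fewer cells of a kind and less RNA per cell cannot be told apart.

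**Figure D1:**
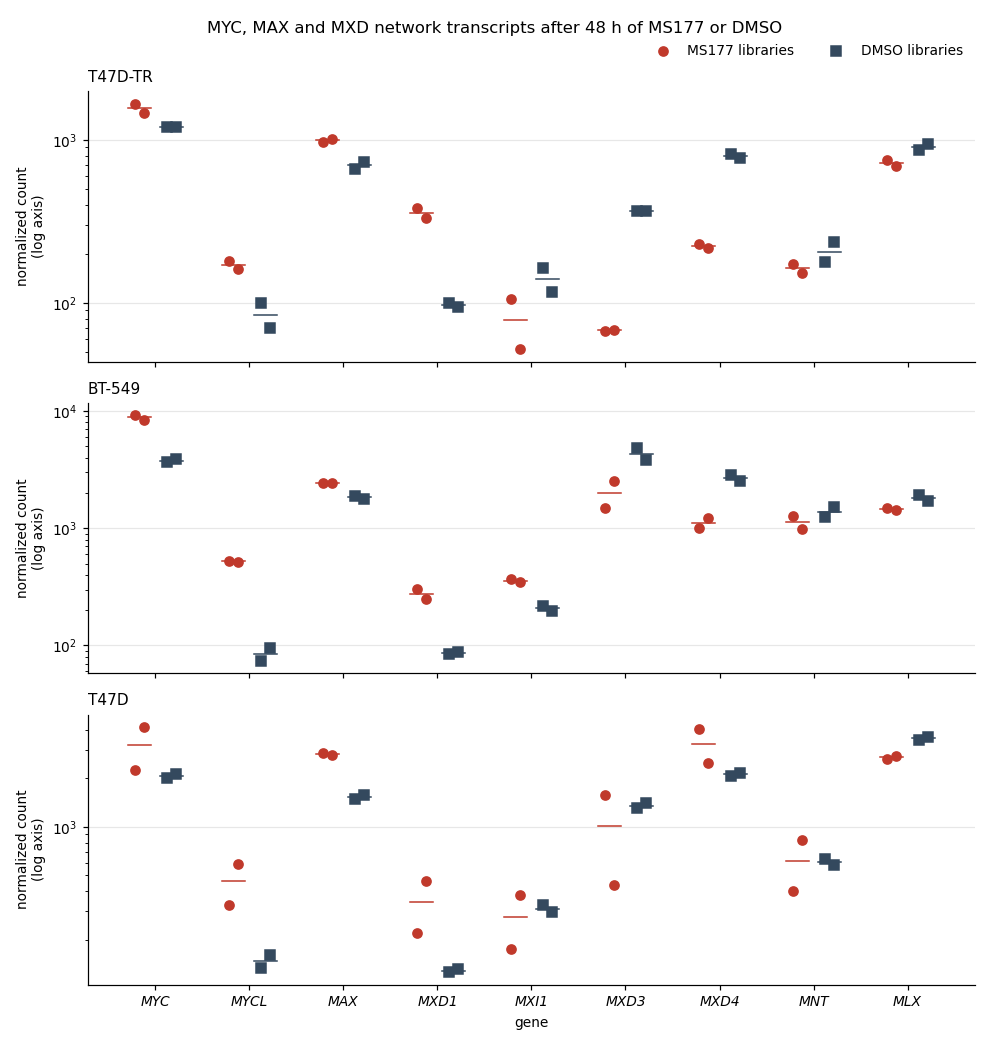
Normalized counts of the 9 tested members in every MS177 library (circles, left) and DMSO library (squares, right) of T47D-TR, BT-549 and T47D at 48 h, on log axes, with group means as short lines. MXD1 and MYCL sit above the DMSO libraries in all 3 lines, and MXD3 and MXD4 sit below them in T47D-TR and BT-549, while in T47D both MXD4 values with MS177 (4045 and 2479.8) lie above DMSO.

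In the activating arm of the network, MYC and MYCL rose more in BT-549 than in T47D-TR by the test between lines below. Neither passed that test in T47D against BT-549. MYC had 9218 and 8464 normalized counts with MS177 and 3685 and 3883 with DMSO in BT-549, a 2.34-fold rise (log2 difference 1.20 ± 0.11 SE, limma adjusted p = 0.00329). MYCL, the family member first found in lung cancer, had 531 and 515 with MS177 and 73.9 and 94.6 with DMSO, a 6.21-fold rise (1.86 ± 0.12, limma adjusted p = 0.00151). Both MS177 libraries lay far above both DMSO libraries for these genes. In T47D-TR MYC had 1663 and 1459 normalized counts with MS177 and 1194 and 1198 with DMSO, 1.31-fold higher (0.30 ± 0.09, limma adjusted p = 0.0253). The groups did not overlap, but the call was lost without MS177 replicate 1 (limma adjusted p = 0.222), without MS177 replicate 2 (0.0519), with the replicate number as a block (0.0716) and with all libraries of the line in 1 fit (0.0555). MYCL in T47D-TR had 181 and 161 with MS177 and 99.9 and 70.2 with DMSO, 2.01-fold higher (0.36 ± 0.08, limma adjusted p = 0.00692). In T47D the MS177 libraries differed from each other: MYC had 2266 and 4160.4 with MS177 and 2004 and 2111 with DMSO, and MYCL had 331 and 589 with MS177 and 135 and 161 with DMSO. Every MS177 library of T47D was above every DMSO library for both genes, with limma adjusted p = 0.474 for MYC and 0.190 for MYCL.

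MAX, the partner that both arms need, was higher with MS177 in all 3 lines by less than 2-fold. It had 968 and 1015 normalized counts with MS177 and 663 and 731 with DMSO in T47D-TR (0.36 ± 0.09, limma adjusted p = 0.00945), a call lost without MS177 replicate 2 (limma adjusted p = 0.0748). In BT-549 it had 2431 and 2439 with MS177 and 1894 and 1787 with DMSO (0.39 ± 0.10, limma adjusted p = 0.0472), a call that 9 of 12 other settings did not keep. In T47D it had 2863 and 2802 with MS177 and 1488 and 1571 with DMSO, 1.85-fold (0.88 ± 0.26, limma adjusted p = 0.213). The T47D groups lie far apart for MAX. Without MS177 replicate 1, 7 of the 9 members passed in T47D, among them MYC (1.01), MXD3 (-1.58), MAX and MNT (0.44), where 49.7% of 17685 genes did. Without MS177 replicate 2, 7 of 9 passed, among them MXD4 (0.93), MXI1 (-0.77), MAX and MNT (-0.57), where 69.9% of 17705 genes did, and MNT took opposite signs in these fits. When all T47D libraries entered 1 fit on log2(normalized count + 1), MAX and MYCL passed (0.89 ± 0.13 with limma adjusted p = 0.00923, and 1.58 ± 0.30 with limma adjusted p = 0.0203), 2 of 9 members higher against 8.13% of 17341 genes.

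Of the repressor genes, MXD1 rose and MXD3 and MXD4 fell. MXD1, which is induced when many cell types stop dividing and mature, had 380.0 and 332 normalized counts with MS177 and 100.5 and 94.7 with DMSO in T47D-TR, a 3.65-fold rise (0.79 ± 0.08, limma adjusted p = 0.000165). In BT-549 it had 302 and 247 with MS177 and 84.5 and 88.4 with DMSO, a 3.17-fold rise (1.09 ± 0.12, limma adjusted p = 0.00500). In T47D it had 222 and 461 with MS177 and 125 and 132 with DMSO, without overlap and with limma adjusted p = 0.260. MXD1 was above DMSO in all 6 MS177 libraries, and how often all genes separate in this way was not computed.

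MXD3, the family member tied to dividing cells, had 67.7 and 68.0 normalized counts with MS177 and 367 and 367 with DMSO in T47D-TR, a 5.41-fold fall (log2 difference -0.97 ± 0.07, limma adjusted p = 4.98e-05). In BT-549 it had 1502 and 2519 with MS177 and 4856 and 3812 with DMSO, a 2.16-fold fall (-1.10 ± 0.26, limma adjusted p = 0.0354). The MS177 libraries of T47D fell on both sides of DMSO for MXD3, with 1585 and 438, against 1302 and 1407 with DMSO. MXD4 had 231 and 216 normalized counts with MS177 and 819 and 778 with DMSO in T47D-TR, a 3.57-fold fall (-1.06 ± 0.08, limma adjusted p = 5.67e-05). In BT-549 it had 1013 and 1218 with MS177 and 2876 and 2544 with DMSO, a 2.43-fold fall (-1.21 ± 0.14, limma adjusted p = 0.00527). T47D went the other way for MXD4, with 4045 and 2479.8 with MS177 and 2074 and 2155 with DMSO (limma adjusted p = 0.430). The MXD1 and MXD4 calls in T47D-TR and BT-549 and both MXD3 calls held under every alternative that could be fitted. The test used genes more than 1 log2 unit above the lowest value in at least 2 libraries. In T47D-TR, MXD1 and MYCL met this filter only through their MS177 libraries, and MXD3 and MXI1 only through their DMSO libraries. Fits that left out a library of that group could not test these genes. For MXD1, MYCL and MXD3 9 alternatives each were fitted, against 11 for MXD4.

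MXI1, the repressor also called MXD2, passed against DMSO in BT-549 and did not in T47D-TR or T47D with all libraries of the table. It had 370.1 and 347 normalized counts with MS177 and 215 and 199 with DMSO in BT-549, a 1.73-fold rise (0.60 ± 0.11, limma adjusted p = 0.0153), a call lost without DMSO replicate 2 (limma adjusted p = 0.0635). In T47D-TR it had 106 and 52.1 with MS177 and 163 and 116 with DMSO, lower without overlap but short of the threshold (limma adjusted p = 0.0640). It passed there with the replicate block (-0.28, limma adjusted p = 0.0134), and the difference was -0.43 without MS177 replicate 1. MXI1 met the filter in T47D-TR only through its DMSO libraries, where it is high, so these values are a description. In T47D it had 175 and 378 with MS177, on both sides of the 326 and 298 with DMSO. MNT, the most broadly expressed MAX-binding repressor, did not pass against DMSO in any line, with limma adjusted p of 0.198 in T47D-TR, 0.262 in BT-549 and 0.942 in T47D. MLX was lower with MS177 in each line without overlap and passed in none: it had 754 and 695 with MS177 and 867 and 937 with DMSO in T47D-TR (limma adjusted p = 0.0596). In BT-549 MLX had 1478 and 1443 with MS177 and 1929 and 1696 with DMSO (limma adjusted p = 0.121), and in T47D 2629 and 2750.2 with MS177 and 3475 and 3622 with DMSO (limma adjusted p = 0.458).

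The size of the response was compared between lines by testing the difference of the 2 within-line differences on log2(normalized count + 1). In T47D-TR against BT-549, 4 of 9 members passed, where 30.5% of 12887 genes did. MYC responded less in T47D-TR than in BT-549, by -0.84 ± 0.15 log2 (limma adjusted p = 0.00482), and MYCL less by -1.61 ± 0.32 (0.00802). MXD3 was reduced more in T47D-TR than in BT-549 (-1.27 ± 0.33, limma adjusted p = 0.0246), and the MXI1 responses differed (-1.67 ± 0.46, limma adjusted p = 0.0302). The MYC and MYCL calls held under all 13 other settings. The MXD3 call was lost in 7 of them, 5 of which leave out 1 library, and the MXI1 call in 5, each of which leaves out 1 library (limma adjusted p up to 0.0799 for MXD3 and 0.0866 for MXI1). For MXD1 the difference between these lines was 0.20 log2 with a 95% interval of -0.37 to 0.78, and for MAX 0.10 with an interval of -0.24 to 0.45. In T47D against BT-549 none of 9 members passed, where 1.53% of 15506 genes did, and in T47D against T47D-TR none passed, where 0.0289% of 13855 did. In limma 1 member had an unadjusted p under 0.05 in each of these 2 comparisons, where 2355 of 15506 and 1706 of 13855 genes did. The member was MXD4, with 1.87 ± 0.37 log2 against BT-549 (limma adjusted p = 0.0757) and 2.42 ± 0.36 against T47D-TR (limma adjusted p = 0.0812).

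Few member tests passed with MS177-N1, MS177-N2 or C24. Over these and the 3 compounds given at 30 h, 2 of 102 tests of a member against DMSO passed in limma, and 9 had an unadjusted p under 0.05. Over all genes the count under that p ran from 157 of 12673 with EPZ-6438 to 4426 of 10578 with MS177-N1, both in T47D-TR. In BT-549 no member of 9 passed with C24, MS177-N1 or MS177-N2, where 0.134%, 0.0% and 3.42% of all genes did. With the replicate block, MNT (0.24, limma adjusted p = 0.0132) and MXD3 (-0.36, limma adjusted p = 0.000221) passed with MS177-N1 in BT-549, where 20.7% of 13934 genes did. In T47D-TR no member passed with C24 or MS177-N2, where 0.00851% and 0.175% of genes did, and 1 of 9 passed with MS177-N1, where 27.5% of 10578 genes did. That member was MXD3, with 336 and 525 normalized counts with MS177-N1 and 265 and 263 with DMSO (0.41 ± 0.14, limma adjusted p = 0.0425). It lay above DMSO, where MXD3 with MS177 lay below, and 7 of 11 other settings did not keep the call. In T47D none of 8 members passed with C24, none of 8 with MS177-N1 and none of 7 with MS177-N2, where 0.847%, 0.179% and 0.0% of all genes did, and the MS177-N1 comparison there holds 1 library of that compound. With C24 in T47D, 3 members had an unadjusted limma p under 0.05, MXI1, MYCL and MLX, as did 1552 of 11803 genes. MYCL there had 209 and 255 with C24 and 150.2 and 179 with DMSO, and voom passed none of the members in these tables of BT-549 and T47D.

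**Figure D2:**
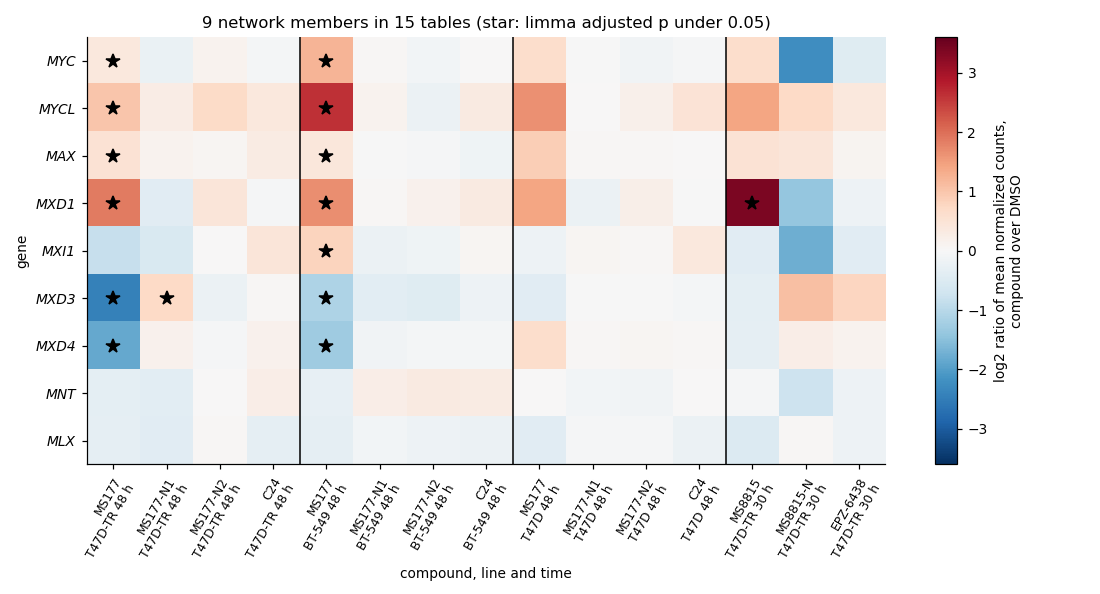
Log2 ratio of mean normalized counts, compound over DMSO, for the 9 members (down) in the 15 tables (across, by line and time); stars mark a limma adjusted p under 0.05. Stars fall in the MS177 columns of T47D-TR (6) and BT-549 (7), and outside them only on MXD3 with MS177-N1 and on MXD1 with MS8815 in T47D-TR.

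MS177 was then compared with each of these 3 compounds directly, at the same 2.5 uM and 48 h, in a fit of all libraries of a line on 1 scale. MS177-N1 and MS177-N2 are called negative controls of MS177 in the labels. With the 30 h pairs below, 11 pairs of compounds were compared, and 42 of 99 member tests passed. In BT-549, MS177 differed from MS177-N1 in 8 of 9 members (33.1% of 16345 genes), from MS177-N2 in 7 of 9 (37.2% of genes) and from C24 in 8 of 9 (35.7% of genes). MYC stood at 9218 and 8464 with MS177, 3845 and 3973 with MS177-N1, 3237 and 3842 with MS177-N2, 4303 and 3393 with C24 and 3685 and 3883 with DMSO. The MS177 libraries alone were set apart, by 1.18 ± 0.14 log2 from MS177-N1, 1.32 ± 0.14 from MS177-N2 and 1.21 ± 0.14 from C24 (limma adjusted p = 0.000316, 0.000164 and 0.000241). MNT, which had not passed against DMSO, was lower with MS177 than with each of the 3 compounds, by -0.55 ± 0.16, -0.62 ± 0.16 and -0.60 ± 0.16 (limma adjusted p = 0.0288, 0.0167 and 0.0189). Each of these MNT calls was lost without MS177 replicate 2. In all, the call against MS177-N1 was lost in 5 of 10 other settings, among them the replicate block and a fit on the compared libraries only, that against MS177-N2 in 3 of 10 and that against C24 in 2 of 10, where the losses come from leaving out 1 library (limma adjusted p up to 0.188, 0.122 and 0.139). MLX passed in none of these comparisons, with 95% intervals of -0.48 to 0.06 for MS177-N1, -0.39 to 0.15 for MS177-N2 and -0.36 to 0.18 for C24. Against MS177-N1 the MXD3 call was lost in 6 of 10 other settings and the MAX call in 4 of 10. Against C24 the MXD3 call was lost in 3 of 10 and the MXI1 call in 1 of 10. The MAX call against MS177-N2 was lost in 1 of 10. All remaining member calls of BT-549 here held in all 10.

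In T47D-TR, MS177 differed from MS177-N1 in 5 of 9 members (50.7% of 15027 genes), from MS177-N2 in 4 (46.3% of genes) and from C24 in 5 (48.1% of genes), so the share of members was near that of all genes. MXD1, MXD3 and MXD4 differed from each of the 3 compounds. MXD1 was higher with MS177 by 2.27 ± 0.24 log2 than with MS177-N1, by 1.44 ± 0.24 than with MS177-N2 and by 1.93 ± 0.24 than with C24. MXD3 was lower by -3.09 ± 0.22, -2.20 ± 0.22 and -2.44 ± 0.22 and MXD4 by -1.97 ± 0.13, -1.79 ± 0.13 and -1.97 ± 0.13 against the 3 compounds in that order. For these 3 genes the largest limma adjusted p was 0.00129. MYC with MS177 was above MS177-N1 by 0.63 ± 0.14 (limma adjusted p = 0.00567) and above C24 by 0.46 ± 0.14 (0.0265). Against MS177-N2 it was 0.26 higher with a 95% interval of -0.06 to 0.59, and did not pass (0.165). Without MS177 replicate 1 the MYC calls were lost (0.54 log2 against MS177-N1 and 0.37 against C24). Without C24 replicate 2 the call against C24 was lost as well (0.28 log2). In all, the MYC call against C24 was lost in 4 of 10 other settings. The others were no mean trend (limma adjusted p = 0.0522) and the compared libraries only (limma adjusted p = 0.0949).

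In T47D, MS177 differed from MS177-N1 in 1 of 9 members (8.56% of 17341 genes), from MS177-N2 in 2 (16.7%) and from C24 in 2 (19.3%). MAX passed all 3 times, by 0.86 ± 0.16, 0.86 ± 0.13 and 0.89 ± 0.13 log2 (limma adjusted p = 0.0295, 0.0109 and 0.00891). MYCL passed against MS177-N2 (1.40 ± 0.30, limma adjusted p = 0.0301) and MXD1 against C24 (1.33 ± 0.35, limma adjusted p = 0.0479). The comparison with MS177-N1 in T47D rests on 1 library of that compound, assumed to vary as the other groups did. Fitted on the compared libraries alone, none of these 5 calls held (limma adjusted p up to 1.00).

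**Figure D3:**
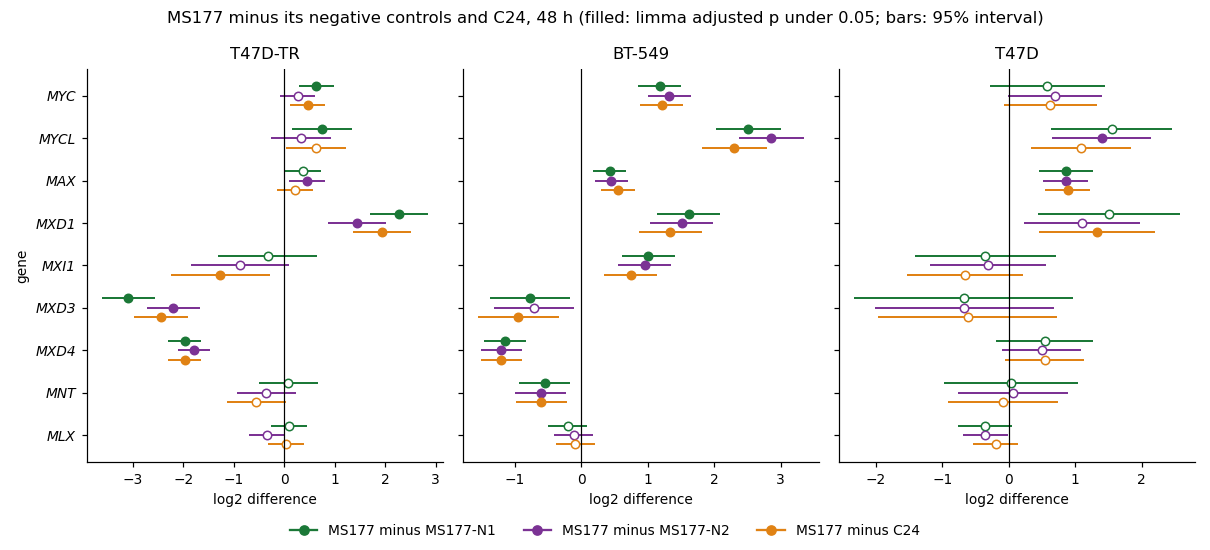
Differences MS177 minus MS177-N1, MS177-N2 or C24 in log2(normalized count + 1) for each member in 3 lines, with 95% intervals as bars and filled points where limma adjusted p was under 0.05. MXD1 lies right of 0 and MXD4 left of 0 against all 3 compounds in T47D-TR and BT-549, and the intervals of T47D are wide except for MAX and MLX.

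After 30 h of MS8815 in T47D-TR, MXD1 was the only member that passed, 1 of 9, where 3.27% of 12067 genes were higher and 2.98% lower. It had 413 and 276 normalized counts with MS8815 and 28.3 and 37.8 with DMSO, a 10.4-fold rise (2.03 ± 0.22, limma adjusted p = 0.0330). The MS8815 libraries lay far above DMSO and above the other compounds, which had 26.0 and 31.8 with EPZ-6438 and 25.2 with MS8815-N replicate 1. Fitted with every 30 h library the MXD1 difference was 3.33 log2 and did not pass (limma adjusted p = 0.654). MYCL was above DMSO without overlap, at 104 and 164 with MS8815 and 56.2 and 44.7 with DMSO (limma adjusted p = 0.0918). MYC had 828 and 1797 with MS8815 and 878 and 829 with DMSO, so 1 library lay at the DMSO level and the other above it. MAX lay on both sides of DMSO, with 326 and 999.9 with MS8815 and 448 and 485 with DMSO. MXD3 had 271 and 71.0 with MS8815 and 241 and 192 with DMSO, and MXD4 had 434 and 466 with MS8815 and 613 and 511 with DMSO, with no pass for either. Without MS8815 replicate 1, MAX (0.98), MXD3, MYC and MYCL passed as well, where 49.0% of 11666 genes did. Without MS8815 replicate 2, MLX, MYCL and MAX did, MAX with the opposite sign (-0.43), where 59.8% of 11684 genes did. Summed luminal markers were 10582 and 12580 CPM with MS8815 and 23687 and 22551 with DMSO, and their part in these results was not tested.

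No member passed with MS8815-N (7 tested, 0.0% of 10169 genes) or EPZ-6438 (9 tested, 0.0% of 12673 genes) against DMSO, and none had an unadjusted p under 0.05 there in limma. Without EPZ-6438 replicate 1, MYC (-0.82), MXD3 (0.98) and MLX (-0.39) passed, where 40.6% of 12452 genes did. Without MS8815-N replicate 2, MYC (-0.91), MNT (-0.43), MXD3 (0.51) and MXD4 (0.37) passed, where 43.2% of 10009 genes did. None of 9 members passed between MS8815 and MS8815-N (0.0574% of 13934 genes) or between MS8815 and EPZ-6438 (0.108%). Against MS8815-N 3 members had an unadjusted p under 0.05 in limma, as did 1862 of 13934 genes. None did against EPZ-6438, where 1156 of 13934 genes did. For MXD1 the difference from MS8815-N was 6.05 log2 with a 95% interval of 2.05 to 10.0 (limma adjusted p = 0.247), with a library at 0 in the comparison. Without MS8815-N replicate 2 it was 3.69 log2 (limma adjusted p = 0.0382). Against EPZ-6438 it was 3.51 with an interval of -0.49 to 7.50 (limma adjusted p = 0.701), in a fit that shares its spread with MS8815-N. With the libraries of MS8815 and EPZ-6438 alone the same 3.51 had limma adjusted p = 0.0186.

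**Figure D4:**
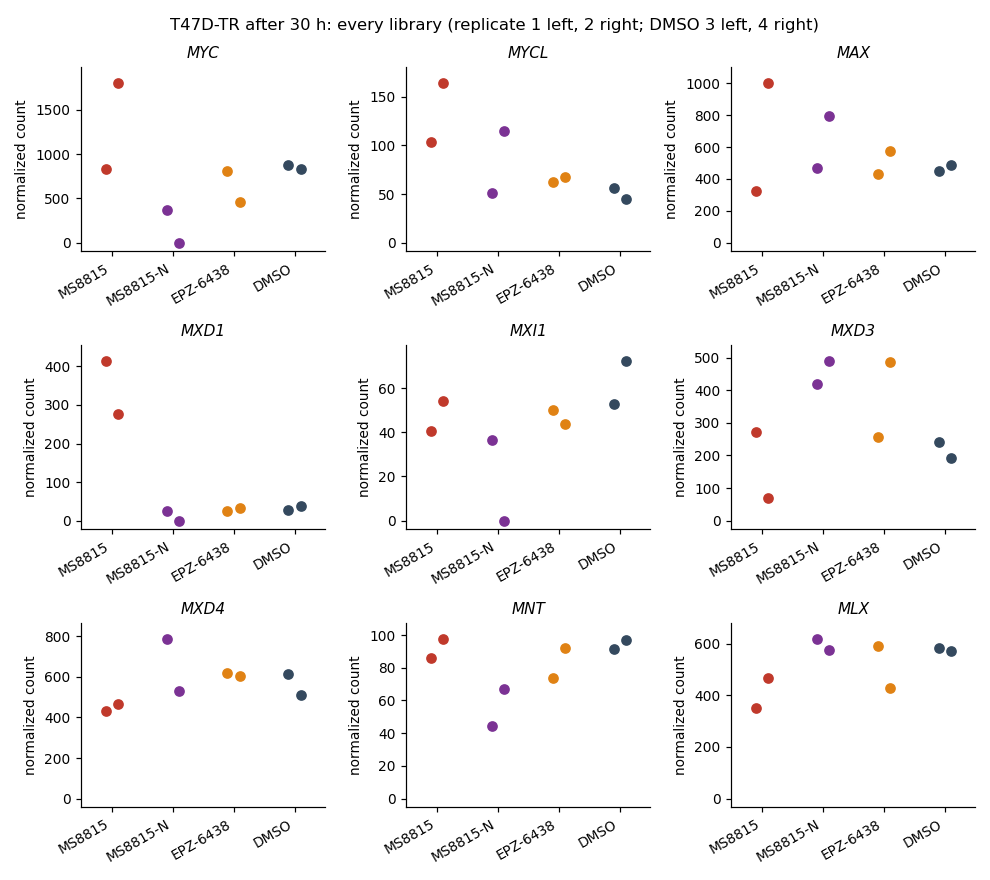
Normalized counts on 1 scale of the 9 members in every T47D-TR library at 30 h, with MS8815, MS8815-N, EPZ-6438 and DMSO from left to right in each panel. MXD1 is high in both MS8815 libraries (413 and 276), and MYC, MXD1 and MXI1 are listed at 0 in MS8815-N replicate 2.

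Beyond the 10 members, some genes of MYC cofactors and MYC protein turnover passed with MS177. In T47D-TR 2 of 19 tested genes of this list rose and 9 fell (median log2 difference -0.30, against -0.0034 over all genes), where 31.1% of all genes were higher and 31.4% lower. In BT-549 3 of 21 rose and 3 fell, near the 12.9% and 14.4% of all genes. USP36, a deubiquitinase known to stabilise MYC, had 2422 and 2148 normalized counts with MS177 and 724 and 836 with DMSO in T47D-TR, a 2.93-fold rise (limma adjusted p = 8.45e-05). In BT-549 USP36 had 6911 and 6692 with MS177 and 1934 and 1938 with DMSO, a 3.51-fold rise (limma adjusted p = 0.00136). The ubiquitin ligase component SKP2, which targets MYC among others, had 186 and 184 with MS177 and 1446 and 1526 with DMSO in T47D-TR, an 8.02-fold fall, and 1774 and 1790.1 against 3370 and 3278 in BT-549, a 1.87-fold fall. AURKA, a mitotic kinase that also binds MYCN, fell 5.69-fold in T47D-TR and 1.81-fold in BT-549. USP28, another deubiquitinase, fell 3.49-fold in T47D-TR, and the kinase PIM1 rose 2.51-fold in BT-549. With MS8815, AURKA (377 and 388 with MS8815, 1086 and 1119 with DMSO) and SKP2 (361 and 307 with MS8815, 800.0 and 830.4 with DMSO) fell, 2 of 20 tested, and none rose, where 2.98% of all genes were lower and 3.27% higher.

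Of the SIN3 and deacetylase complex that MXD proteins recruit, 5 of 13 tested genes rose and 4 fell in T47D-TR, near the share of all genes (31.1% higher, 31.4% lower), and none of 14 rose and 3 fell in BT-549 (12.9% and 14.4% of all genes). HDAC1, its deacetylase, had 952 and 953 normalized counts with MS177 and 1858 and 1889 with DMSO in T47D-TR and 5905 and 5853 against 7818 and 7833 in BT-549, falls of 1.97-fold and 1.33-fold. The histone-binding subunits RBBP4 and RBBP7 fell 2.54-fold and 2.62-fold in T47D-TR, where the scaffold SIN3B rose 1.94-fold. ING2 and ING1, which read methylated histone H3 for this complex, fell 1.89-fold and 1.44-fold in BT-549. Of 4 network partners outside the members, MYCBP, a MYC-binding protein, had 453 and 490 with MS177 and 858 and 664 with DMSO in T47D-TR and fell 1.62-fold (limma adjusted p = 0.00950). MGA, a MAX-binding repressor, had 697 and 522 with MS177 and 373 and 470 with DMSO there and rose 1.44-fold (limma adjusted p = 0.0469). MLXIP did not pass in any of the 3 lines (limma adjusted p = 0.0678 in T47D-TR, 0.167 in BT-549 and 0.455 in T47D).

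Known MYC-activated genes moved in both directions. In BT-549 10 of 43 tested rose and 5 fell (12.9% and 14.4% of all genes), with a median log2 difference of 0.24 against 0.013 over all genes. In T47D-TR 10 of 42 rose and 20 fell (31.1% and 31.4% of all genes), with a median of -0.24 against -0.0034. With MS177-N1 in T47D-TR 10 of 42 rose and 2 fell, where 1573 of 10578 genes were higher and 1333 lower (27.5% in either direction). The amino acid transporter SLC7A5 had 74483 and 66123 normalized counts with MS177 and 15278 and 16802 with DMSO in T47D-TR, a 4.38-fold rise (limma adjusted p = 3.86e-05). In BT-549 SLC7A5 had 35101 and 28251 with MS177 and 3619 and 4408 with DMSO, a 7.89-fold rise (limma adjusted p = 0.00142). The polyamine enzyme ODC1 rose 4.49-fold in T47D-TR, and the mitochondrial serine enzyme SHMT2 and the ribosomal RNA modification factor DKC1 rose 2.60-fold and 2.03-fold in BT-549. The cell cycle factor E2F2 had 26.4 and 21.5 with MS177 and 562 and 630.0 with DMSO in T47D-TR, a 24.9-fold fall, and fell 2.67-fold in BT-549. E2F2 met the filter of the test in T47D-TR only through its DMSO libraries. The transferrin receptor TFRC fell 3.02-fold in T47D-TR with MS177 and 4.09-fold with MS8815. With MS8815 1 of 42 rose, the mitochondrial chaperone HSPD1 (2.47-fold), and 4 fell, among them LDHA (2.83-fold) and E2F2 (2.93-fold), where 3.27% of all genes were higher and 2.98% lower.

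Known MYC-repressed genes also split. In T47D-TR 5 of 9 tested rose and 3 fell (31.1% and 31.4% of all genes), and in BT-549 4 of 11 rose and 2 fell (12.9% and 14.4%). With MS8815 2 of 10 rose and 2 fell (3.27% and 2.98% of all genes). GADD45A, a stress-induced growth arrest gene, had 1053 and 1239.6 normalized counts with MS177 and 129.5 and 95.9 with DMSO in T47D-TR, a 10.2-fold rise, and rose 4.61-fold in BT-549. With MS8815 it had 1519 and 1371 against 79.4 and 63.5 with DMSO, a 20.2-fold rise (limma adjusted p = 0.0150). The cell cycle inhibitor gene CDKN1A had 10831 and 11254 with MS177 and 1431 and 1338 with DMSO in T47D-TR, a 7.97-fold rise, and rose 2.79-fold with MS8815. FTH1, the ferritin heavy chain, rose 4.16-fold in T47D-TR and NDRG1 rose 2.89-fold in BT-549. The matrix protein THBS1 fell 3.80-fold in T47D-TR with MS177 and 2.89-fold with MS8815, and NDRG2 fell 3.71-fold with MS8815. GAS1 fell 3.69-fold and the cell cycle inhibitor CDKN1B 2.21-fold in BT-549. The median of the list was 0.24 in T47D-TR, 0.11 in BT-549 and 0.41 with MS8815, against -0.0034, 0.013 and 0.004 over all genes.

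The 3 tested target genes of MLX and MondoA, TXNIP, ARRDC4 and KLF10, rose with MS177 in both T47D-TR and BT-549. Over all genes 31.1% were higher in T47D-TR and 12.9% in BT-549. MLX and MLXIP themselves did not pass. TXNIP and ARRDC4 encode arrestin-domain proteins that limit glucose uptake, and KLF10 is a transcription factor. TXNIP had 7485 and 7414 normalized counts with MS177 and 1575 and 1579 with DMSO in T47D-TR, a 4.72-fold rise (limma adjusted p = 9.32e-06). ARRDC4 had 1639 and 1641 with MS177 and 177 and 190.1 with DMSO there, an 8.93-fold rise, and KLF10 rose 4.35-fold. In BT-549 TXNIP had 828 and 835 with MS177 and 214 and 235 with DMSO, a 3.70-fold rise (limma adjusted p = 0.0017), ARRDC4 rose 2.17-fold and KLF10 1.40-fold. The T47D libraries lay on the same side without overlap for TXNIP (4291 and 7431 with MS177, 837 and 745 with DMSO) and ARRDC4 (887 and 1388 with MS177, 143 and 136 with DMSO), without a pass (limma adjusted p = 0.131 and 0.124). KLF10 overlapped in T47D, with 1200 and 3165 against 1130 and 1216 with DMSO (limma adjusted p = 0.502). PKLR did not pass there (limma adjusted p = 0.327). With MS8815 ARRDC4 rose 5.54-fold, and TXNIP did not pass, at 659 and 699 with MS8815 and 925 and 864 with DMSO (limma adjusted p = 0.246). KLF10 did not pass either (limma adjusted p = 0.880), where 3.27% of all genes were higher. With C24 in T47D 1 of 3 tested list genes rose (0.847% of all genes passed). With MS177-N2 in T47D-TR 2 of 3 had an unadjusted limma p under 0.05, as did 588 of 10852 genes.

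**Figure D5:**
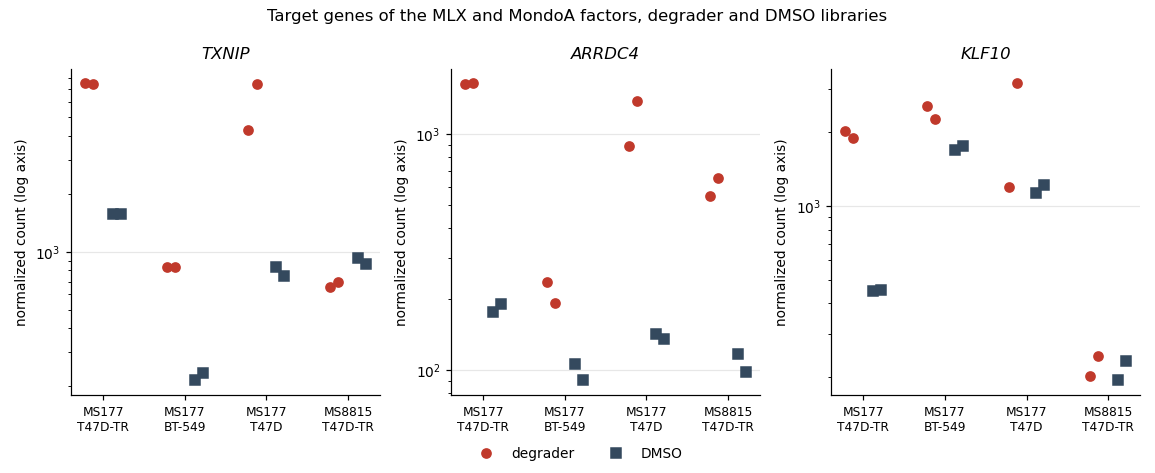
Normalized counts on log axes of TXNIP, ARRDC4 and KLF10 in degrader libraries (circles, left) and DMSO libraries (squares, right) of the 3 MS177 comparisons and of MS8815 in T47D-TR. All 3 genes lie above DMSO with MS177 in T47D-TR and BT-549, and ARRDC4 alone does so with MS8815.

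PVT1, the long noncoding RNA next to MYC, was the only transcript of the MYC locus list tested in BT-549, where it had 716 and 695 normalized counts with MS177 and 365 and 465 with DMSO and rose 1.70-fold (limma adjusted p = 0.0233). In T47D it had 1399 and 958.9 with MS177 and 760.0 and 769 with DMSO and did not pass (limma adjusted p = 0.381), and in T47D-TR it had 90.9 and 38.2 with MS177 and 20.4 and 8.82 with DMSO, too low to be tested against DMSO at 48 h. In the fit of all T47D-TR libraries PVT1 was higher with MS177 than with MS177-N2 by 2.72 ± 0.62 log2 (limma adjusted p = 0.00608), and it did not pass against MS177-N1 (0.77, limma adjusted p = 0.321) or C24 (1.49, limma adjusted p = 0.0738). In T47D none of the 7 lists had a gene that passed in limma with MS177, and 9 of 21 cofactor genes, 2 of 14 corepressor genes, 13 of 43 activated, 3 of 11 repressed and 2 of 4 MLX target genes had an unadjusted p under 0.05, as did 3247 of 18146 genes. Across the 19 groups, each centred on its line and time, the 3 genes whose pattern was most like MYC among 8027 compared were THAP6 (Pearson r = 0.992), ALKBH8 (0.989) and FBXL20 (0.988). The MS8815-N group, with a library that lists MYC at 0, weighs on these values, and over the 18 other groups the same genes had r = 0.972, 0.961 and 0.958. The other 30 h groups were still centred on a mean that included MS8815-N. Leaving that group out thus did not remove all of its weight from any r over the 18 groups. Over those 18 groups MXD1 had r = 0.738 with MYC, MAX 0.326, MLX -0.37, MXD4 -0.37 and MXD3 -0.52. Genes needed a mean of at least 100 normalized counts in every line and time to be compared. At 30 h MXD1 reached it only through its MS8815 libraries (413 and 276), with 37.8 or less in the others. It thus entered through the group where it is high. MYCL, MNT and MXI1 fell short of that mean and were not compared. The groups share DMSO libraries within a line, so these values are a description and carry no p.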

How the data were processed

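Polyadenylated RNA of 38 samples in 19 groups was sequenced. The authors deposited 15 tables of 1 compound against DMSO, holding variance-stabilised log2 values per gene, not counts; RSEM, DESeq and hg38 are named in the submitters' processing notes, and the aligner is not given in the sources used here. The transform was undone with the lowest value of a table taken as 0. For T47D and BT-549 this gave whole reads at 100% of values up to 1000 reads (tolerance 0.05), 32.1 to 49.9 M reads per library; for T47D-TR 8.56 to 16.3% were whole, so its depth is unknown and its tables were joined through shared DMSO libraries gene by gene.

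Deposited log2 values were tested with limma 3.58.1 (R 4.3.3) with a mean trend, on genes more than 1 log2 unit above the lowest value in at least 2 libraries. For compounds and lines the fit used log2(normalized count + 1) of genes that reached 10 in 2 libraries or more. P-values were adjusted by Benjamini-Hochberg over all genes, and the method was tested on simulated data. The text names all 10 members, up to 4 genes per list with the largest difference past the threshold, and the 3 genes most like MYC among those with a mean of at least 100. MLXIP, PVT1 and, where they did not pass, TXNIP, ARRDC4, KLF10 and PKLR were named after their values were seen. The members and lists were chosen with earlier results of these data known. Groups came from the titles. Same-numbered libraries deviated with r from -0.72 to 0.73, with both signs, so the numbers were not taken to pair samples. In BT-549 r was -0.58 with C24, 0.73 with MS177-N1, -0.50 with MS177-N2 and -0.72 with MS177. Libraries there thus share structure that the main test leaves out, and its source was not tested. Alternatives changed the scale, filter, scaling, trend, block, libraries and test.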

Additional observations from a re-analysis of the deposited data

Results flagged for a closer look

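The MS177 response differed between T47D-TR and BT-549 for 4 members, by limma tests of the difference of the within-line differences on log2(normalized count + 1). The differences T47D-TR minus BT-549 were -0.84 for MYC, -1.61 for MYCL, -1.27 for MXD3 and -1.67 for MXI1. MXD4 stood apart in T47D, where both MS177 libraries lay above both DMSO libraries while both MS177 libraries of T47D-TR and of BT-549 lay below theirs. The differences were 1.87 against BT-549 (limma adjusted p = 0.0757) and 2.42 against T47D-TR (limma adjusted p = 0.0812), and neither passed.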

How the results depend on the processing

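The 13 member calls of MS177 against DMSO became 12 to 14 with another scale, filter, scaling or trend or with all libraries of a line, and 12 with the replicate block. By voom they were 6, against 7 in the same tables. They also moved in both directions when 1 replicate was left out. The 2 calls of the other compounds became 1 on the back-transformed scale, 1 with no filter, 1 with no mean trend and 0 with all libraries of a line, 3 with the replicate block (1 over the same tables), and 2 to 14 when 1 replicate was left out. The 42 calls between compounds became 36 to 47, 39 with the block, and 32 to 56 without 1 replicate, and the 4 between lines 3 with the block and 2 to 13 without 1 replicate. A crossed replicate block, chosen after seeing the data, gave 17 calls for MS177 and 5 for the other compounds (1 over the same tables). Of the values for single members, 8 reversed when a library was left out. Without MS8815 replicate 1 or 2, MAX against DMSO was 0.98 or -0.43; without MS177 replicate 1 or 2 in T47D, MNT was 0.44 or -0.57 against DMSO, 0.56 or -0.48 against MS177-N1, 0.59 or -0.45 against MS177-N2 and 0.44 or -0.60 against C24. MXD3 in T47D was -1.61 or 0.24 against MS177-N1, -1.60 or 0.25 against MS177-N2 and -1.54 or 0.31 against C24. The causes were not tested. Counts over all genes moved by over 1.5 times in 134 alternative fits and by less in 171: for MS177 in T47D 0 became 916 with the block, 3150 with all libraries and 48 to 12368 without 1 library, for MS177 in BT-549 3953 became 9663 with the crossed block, for MS8815 754 became 434 with no filter, 11 with all libraries and 138 to 6988 without 1 library, and for MS177-N1 in T47D-TR 2906 became 5 with all libraries and 215 to 2976 without 1 library. The 30 h tables share no replicate numbers with their DMSO, so no block was fitted there, and MS177-N1 in T47D has 1 library, which could not be left out. Voom was not run for T47D-TR, where whole reads were not recovered. With MS177 in T47D-TR, MXD1, MXD3, MXI1 and MYCL met the filter only through the group where they are high. They could not be tested in fits without 1 library of that group. Between lines, the fit already holds the compared libraries only. Groups of 2 and the unknown depth of T47D-TR limit what low members such as MXD1 and MYCL can show.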
